A study of Rattus norvegicus with 6 samples.

Results

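The 8 genes described here belong to the PI3K, AKT and mTOR kinase pathway and were measured in rat RA-FLS, fibroblast-like synoviocytes of the joint lining labelled as rheumatoid arthritis. The genes were chosen by name, and all 8 were found among the 34156 genes of the deposited count table. They are Pik3ca, Pik3cb and Pik3cd, which encode catalytic subunits of class IA PI3K, Pik3r1, which encodes a regulatory subunit, the kinase isoforms Akt1 and Akt2, and Mtor and its partner Rptor. The study sequenced poly(A) RNA from 3 samples of cells given TNF-α at 10 ng/mL, called the TNF-α group, and from 3 given the same TNF-α with 80 μmol/L emodin (EMO), an anthraquinone from rhubarb, called the TNF-α+EMO group. All 6 were labelled wild type. The sample labels give day 5, whereas the methods give a shorter incubation after treatment. The cells came from a commercial supplier, and no library without TNF-α was analysed here, so the values compare EMO with no EMO under TNF-α only. The methods call the 3 samples of a group biological replicates, but neither they nor the labels say whether these came from separate cultures or animals, so p-values measure the spread between these samples only.

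Class I PI3K is a lipid kinase that works at the plasma membrane below growth factor and cytokine receptors. A regulatory subunit holds and stabilizes a catalytic subunit and carries it to the receptor or to adaptors such as the IRS proteins, and the lipid PIP3 made there recruits AKT. AKT in turn releases the kinase mTOR from the TSC brake, and mTOR, with RAPTOR, drives protein synthesis and restrains autophagy. In synovial fibroblasts this pathway is known for its part in growth, survival and invasion.

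The libraries held 16813322 to 17794455 counts on genes, and each of the 8 genes had at least 178 counts in every library. The TNF-α libraries expressed the fibroblast genes Col1a1 (102801 to 121730 counts) and Pdgfra (21089 to 21517 counts), while Thy1, Pdpn and Prg4, also markers of synovial fibroblasts, had 7 counts or fewer in every library. With EMO, Col1a1 had 3554 to 3672 counts and Pdgfra 175 to 238. Of 10 fibroblast markers tested, 9 were lower with EMO and 1, Dcn, was higher. The summed level of the fibroblast markers (CPM per kilobase) ranged over 3497 to 3721 without EMO and 1016 to 1097 with it. Nearly all of the sum with EMO was Vim, with a mean level of 1015 against 1927 without EMO, so the sum says little of the other markers. Of 12 leukocyte markers, 3 had enough counts to test, 2 being higher and 1 lower with EMO, and the summed level was 43.5 to 46.8 against 28.6 to 31.0. Ptprc, which defines leukocytes, had 1 count at most. Endothelial markers summed to 0.560 to 0.668 against 0.172 to 0.233, and epithelial markers, nearly all of it Krt8, to 297 to 323 against 58.7 to 68.8, with Epcam at 0 throughout. Mitochondrially encoded mRNAs took 3.33% to 3.55% of counts without EMO and 0.191% to 0.214% with it. TNF-α+EMO replicate 3 stood furthest from its group, with a chi-square per gene of 23.5 against replicate 1, compared with 4.62 to 5.73 between TNF-α libraries. These shifts moved with the groups, and their part in the results on the 8 genes was not tested. In RNA from whole cultures, fewer cells of a type and less RNA per cell cannot be told apart.

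The 2 members past a 2-fold change in either direction were Pik3r1 and Akt2. The sequences that RefSeq places before their starts are shown to let a reader compare the 2 regulatory regions, from 250 bases upstream to the base before the annotated start (build GRCr8, whereas the count table uses Rnor_6.0). Capitals mark matches on either strand to the GC box GGGCGG and the CCAAT box. Matches to the FOXO motif GTAAACA, the E-box CACGTG, the AP-1 motif TGACTCA and the CRE TGACGTCA were also searched, and neither sequence held one. Neither gene's start in these cells was measured.
Pik3r1, chr2:34697661-34697910, minus strand: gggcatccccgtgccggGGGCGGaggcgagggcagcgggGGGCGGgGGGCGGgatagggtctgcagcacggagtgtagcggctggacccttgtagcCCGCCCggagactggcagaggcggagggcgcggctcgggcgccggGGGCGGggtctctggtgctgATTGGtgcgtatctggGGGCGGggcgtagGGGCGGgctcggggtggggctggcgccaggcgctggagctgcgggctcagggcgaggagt
Akt2, chr1:92021667-92021916, plus strand: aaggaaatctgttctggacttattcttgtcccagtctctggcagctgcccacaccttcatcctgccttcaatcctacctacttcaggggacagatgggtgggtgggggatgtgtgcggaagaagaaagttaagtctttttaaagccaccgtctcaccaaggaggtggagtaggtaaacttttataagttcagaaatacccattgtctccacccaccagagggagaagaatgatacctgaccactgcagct
The Pik3r1 sequence held 7 GC boxes and 1 CCAAT box and was 77.2% G and C, and that of Akt2 held none of the 6 motifs and was 48.4% G and C. Among 33469 RefSeq promoters of the same length, 30.5% held a GC box, 34.0% a CCAAT box, 3.21% the FOXO motif, 5.59% the E-box, 4.05% the AP-1 motif and 1.59% the CRE, and the median G and C content was 51.2%. Entries for 6 of the 8 genes matched by symbol. Of the others matched, Akt1, also lower with EMO, held none of the 6 motifs, and Pik3cd, also lower, held 1 CCAAT box only. Mtor, lower too, held 4 GC boxes and 3 CCAAT boxes, and Pik3ca, which did not pass, held the FOXO motif only. Such matches are a description of letters, and factor binding was not measured.

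Counts were scaled between libraries by edgeR's TMM factors (normalized counts). The quasi-likelihood test of edgeR was then run on the 13614 genes that reached 10 counts in 3 or more libraries, with p-values adjusted over all of these. A gene is called at an adjusted p under 0.05, and log2 fold changes (log2FC) are TNF-α+EMO over TNF-α, each given ± its standard error. By this rule 6 of the 8 genes changed, 5 lower with EMO (Pik3r1, Mtor, Pik3cd, Akt1 and Rptor) and 1 higher (Akt2), while Pik3ca and Pik3cb did not pass. The transcriptome as a whole moved as widely, since 80.9% of all genes tested were called, 39.4% higher and 41.4% lower, so 6 of 8 is near the background. With an absolute log2 fold change over 1 as well, 1 member was higher and 1 lower, where 19.5% of all genes tested were higher and 27.8% lower. The 3 libraries of each group did not overlap for the 6 genes called, and the groups did not overlap for 82.9% of all genes tested. The median absolute log2 fold change was 0.67 over the members and 0.96 over all genes tested.

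**Figure D1:**
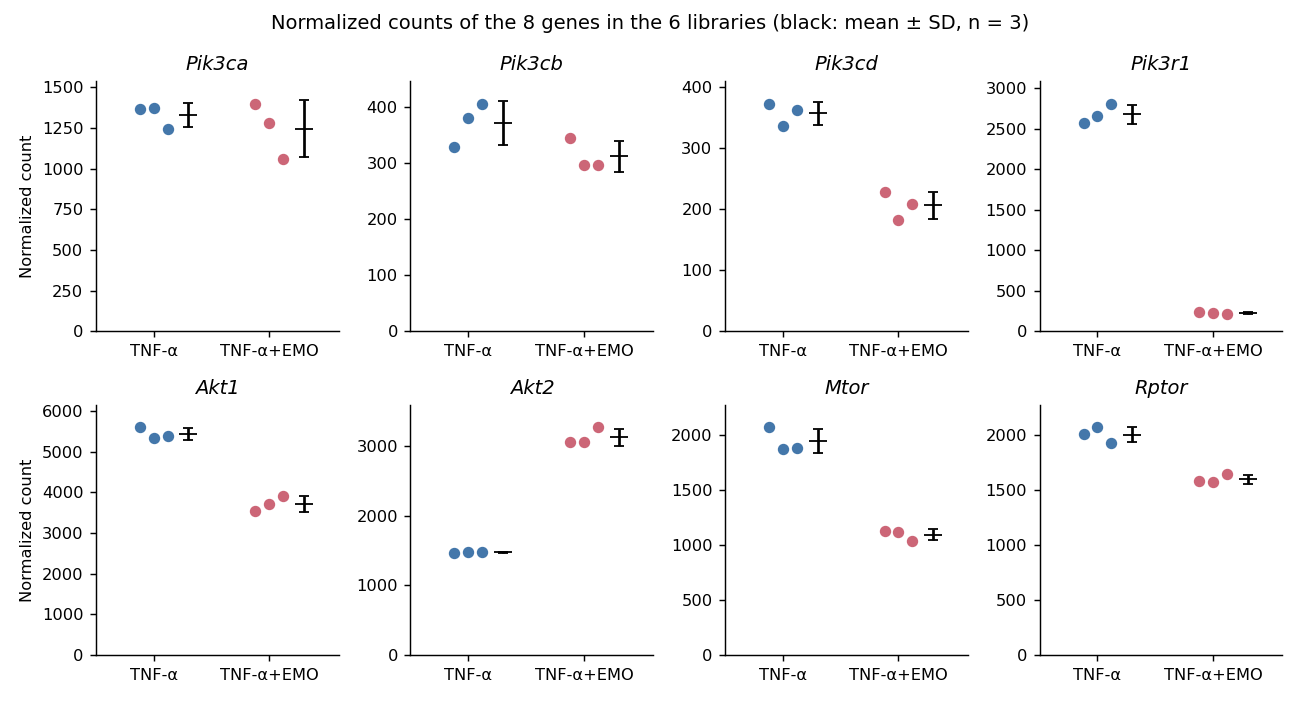
Normalized counts (vertical axes, each from 0 and with its own range) of the 8 genes in each of the 3 TNF-α (blue) and 3 TNF-α+EMO (red) libraries, with the group mean ± SD in black. Pik3r1 falls from 2577 to 2810 normalized counts to 217 to 243, Akt2 rises while Akt1 falls, and the groups overlap for Pik3ca and Pik3cb.

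Pik3r1 carried the largest change among the 8 genes. It encodes p85α and its shorter forms, which stabilize the catalytic subunits and hold them inactive until a receptor is engaged. Without EMO it had 2627, 2726 and 2885 counts, and with EMO 236, 216 and 213. All 3 EMO values lay more than 10-fold below every TNF-α value. After normalization the means were 2682 ± 119 and 227 ± 14.2 (SD, n = 3 each), an 11.8-fold decrease or a log2FC of -3.56 ± 0.08 (adjusted p = 2.0e-11). Of all genes tested, 8.51% had a lower log2 fold change. The gene lies on chromosome 2 from 31745088 to 31826867 on the minus strand in the deposited coordinates, and no other listed gene overlaps it.

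The catalytic subunits moved far less. Pik3ca, which encodes the widely expressed p110α, had 1394, 1410 and 1278 counts with TNF-α and 1355, 1252 and 1037 with EMO. The groups overlapped, and the lowest value was that of TNF-α+EMO replicate 3. The means were 1329 ± 72.9 and 1245 ± 174 normalized counts, and the log2FC of -0.09 ± 0.10 (adjusted p = 0.39) had a 95% interval of -0.31 to 0.13. Without TNF-α+EMO replicate 3 it was 0.0049 (adjusted p = 0.95, against 0.075 to 0.95 over the alternatives).

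Pik3cb, which encodes p110β, had 336, 390 and 417 counts with TNF-α and 334, 290 and 291 with EMO. The highest EMO value exceeded the lowest TNF-α value after normalization. The log2FC was -0.25 ± 0.11 (adjusted p = 0.061), with a 95% interval from -0.50 to -0.00029. This call depended on single libraries, as the adjusted p was 0.024 without TNF-α+EMO replicate 1 and 0.034 without TNF-α replicate 1, and it ranged from 0.014 to 0.22 over the alternatives.

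Pik3cd encodes p110δ, the isoform best known from leukocytes. Its counts were 379, 344 and 371 with TNF-α and 220, 178 and 204 with EMO, so the groups did not overlap. It fell from 356 ± 18.7 to 206 ± 22.5 (normalized counts, SD), with a log2FC of -0.79 ± 0.12 (adjusted p = 7.7e-05). Pik3cg, the class IB isoform of leukocytes, had 0 counts in all 6 libraries, which allows up to 3 counts per library, and the leukocyte-defining gene Ptprc had 0 or 1 count. Of the leukocyte and macrophage markers with enough counts to test, Cd14 had 1055 to 1163 counts with TNF-α and 451 to 536 with EMO (-1.10, standard error 0.09, adjusted p = 4.4e-07). Cd68 had 142 to 172 and 239 to 259 (0.75, standard error 0.13, adjusted p = 2.4e-04). Itgam had 1 count at most with TNF-α and 10 to 14 with EMO (adjusted p = 2.1e-04). These counts are low and uncertain, since Itgam overlaps Itgax, which had far more counts, and the strand setting of the counting is not given. Whether the Itgam counts came from Itgax was not tested. The part of leukocytes or macrophages in the values of Pik3cd was not tested.

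Akt1 and Akt2 changed in opposite directions. Akt1, the isoform tied mainly to growth and survival, had 5703, 5464 and 5519 counts with TNF-α and 3428, 3616 and 3842 with EMO. Every EMO library lay below every TNF-α library. It fell from 5433 ± 142 to 3716 ± 189 (normalized counts, SD), with a log2FC of -0.55 ± 0.06 (adjusted p = 6.9e-06). Akt2, the isoform best known for insulin-stimulated glucose uptake, had 1498, 1520 and 1510 counts with TNF-α and 2957, 2986 and 3205 with EMO. Its TNF-α values lay close together, and all EMO values were about 2-fold higher. It rose from 1474 ± 7.02 to 3123 ± 122 (normalized counts, SD), with a log2FC of 1.08 ± 0.06 (adjusted p = 1.8e-08), and 18.0% of all genes tested had a higher one. Akt1 lies on chromosome 6 from 137218376 to 137236258 and Akt2 on chromosome 1 from 84411726 to 84450162, and neither overlaps another listed gene.

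Mtor encodes the kinase shared by the complexes mTORC1 and mTORC2. Its counts were 2109, 1924 and 1932 with TNF-α and 1096, 1091 and 1017 with EMO, with a wide gap between the groups. It fell from 1942 ± 110 to 1094 ± 51.0 (normalized counts, SD), with a log2FC of -0.83 ± 0.07 (adjusted p = 7.2e-07). Rptor encodes RAPTOR, the scaffold that brings substrates to mTORC1. Its counts were 2049, 2123 and 1984 with TNF-α and 1534, 1534 and 1613 with EMO. The groups did not overlap, but the decrease was smaller, from 2004 ± 68.9 to 1598 ± 39.2 (normalized counts, SD), with a log2FC of -0.33 ± 0.06 (adjusted p = 4.1e-04). Mtor (chromosome 5, 165263800 to 165373967) spans Angptl7 on the other strand and a U6 snRNA, but these held at most 4 and 1 counts. Pik3cd lies on the same chromosome from 166602053 to 166628028, Rptor on chromosome 10 from 108750620 to 109058691, Pik3ca on chromosome 2 from 118831350 to 118861454 and Pik3cb on chromosome 8 from 107275725 to 107380933, with no overlapping gene.

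**Figure D2:**
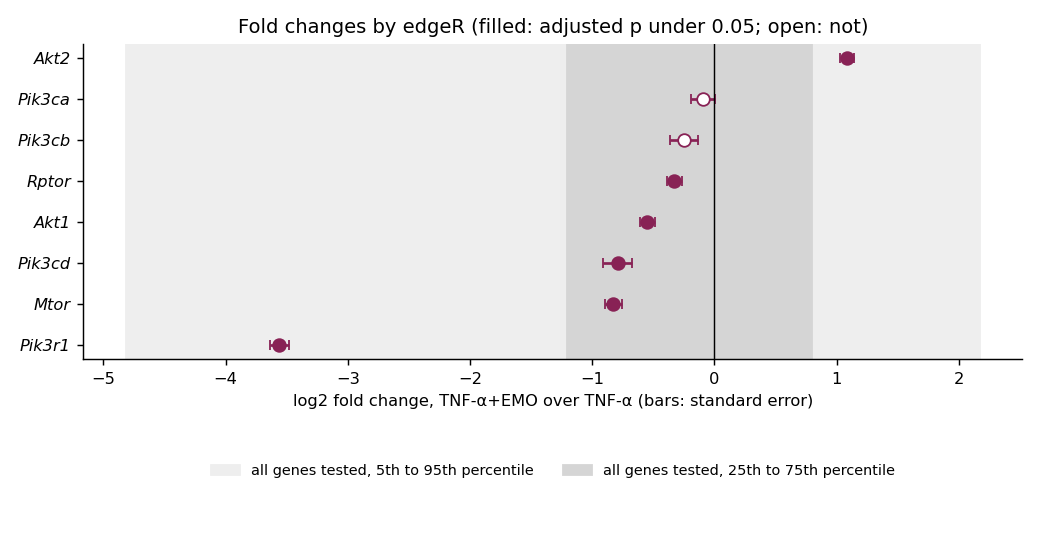
Log2 fold change of TNF-α+EMO over TNF-α for each of the 8 genes (points, with the standard error as bars; filled points passed an adjusted p under 0.05), over bands that run from the 5th to the 95th (light grey) and from the 25th to the 75th percentile (dark grey) of all 13614 genes tested. Pik3r1 at -3.56 and Akt2 at 1.08 lie outside the dark band, which runs from -1.21 to 0.80, and the other 6 genes lie inside it.

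Levels of different genes were compared per kilobase of the deposited gene length and scaled to the effective library size (CPM per kilobase). In the TNF-α libraries the order was Akt1 (131 ± 3.41), Akt2 (43.3 ± 0.206), Pik3r1 (37.6 ± 1.66), Rptor (17.4 ± 0.599), Mtor (13.0 ± 0.734), Pik3ca (12.1 ± 0.664), Pik3cb (4.48 ± 0.470) and Pik3cd (4.33 ± 0.227). Only Pik3cb and Pik3cd overlapped as neighbours in that order. With EMO the order became Akt2 (91.6 ± 3.59), Akt1 (89.5 ± 4.56), Rptor (13.9 ± 0.341), Pik3ca (11.3 ± 1.58), Mtor (7.34 ± 0.342), Pik3cb (3.77 ± 0.333), Pik3r1 (3.18 ± 0.20) and Pik3cd (2.50 ± 0.273). Here Akt2 and Akt1 overlapped, and the other neighbours did not. Pik3r1 thus went from the third to the seventh place, below Pik3cb, and Akt2 from the second to a shared first. The deposited FPKM values gave the same 2 orders.

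Within a library, the ratio of 2 genes does not depend on how libraries are scaled. Per kilobase, Akt1 stood at 3.12, 2.95 and 3.00 times Akt2 without EMO and at 0.951, 0.994 and 0.984 times with it. Its log2 value, on normalized counts plus 0.5, fell by 1.63 (standard error 0.03). The ratio of Pik3r1 to Pik3ca was 2.90, 2.97 and 3.47 per kilobase with TNF-α and 0.268, 0.265 and 0.316 with EMO, a log2 change of -3.46 (standard error 0.12). The log2 ratio of Rptor to Mtor was higher by 0.50 (standard error 0.08), with no overlap between the groups. The log2 ratio of Pik3cd to Pik3cb changed by -0.55 (standard error 0.13), also without overlap. The ratio of Pik3ca to Pik3cb overlapped between the groups and changed by 0.15 on the log2 scale (standard error 0.15). In exact two-sided permutation tests of these 5 ratios, the p was 0.1 for the 4 that did not overlap, which is the smallest that 3 libraries against 3 allow (0.125 after Benjamini-Hochberg adjustment), and 0.5 for Pik3ca to Pik3cb, so none passed 0.05.

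The make-up of class IA PI3K was described by shares of the summed level per kilobase. Among the 3 regulatory subunit genes, Pik3r1 went from 45.2% ± 1.13 (SD, n = 3) of the sum to 10.4% ± 1.41, and Pik3r2, which encodes p85β, from 45.3% ± 1.29 to 88.6% ± 1.48. The rise of that share went with lower counts of Pik3r2 itself, 2032 to 2078 with TNF-α and 1322 to 1629 with EMO, a log2FC of -0.46 ± 0.08 (adjusted p = 3.3e-04). Pik3r3, which encodes p55γ, had 262, 318 and 278 counts with TNF-α and 10, 12 and 11 with EMO, a log2FC of -4.62 ± 0.19 (adjusted p = 1.9e-09). All 3 regulatory genes were lower with EMO, and their summed level fell from 83.2 ± 1.62 to 30.9 ± 3.08 CPM per kilobase. The catalytic sum was 20.9 ± 0.279 and 17.6 ± 1.96. The ratio of the regulatory sum to the catalytic sum was 3.89, 3.93 and 4.11 without EMO and 1.5, 1.65 and 2.19 with it. These are mRNA levels, and proteins and phosphorylation were not analysed here.

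**Figure D3:**
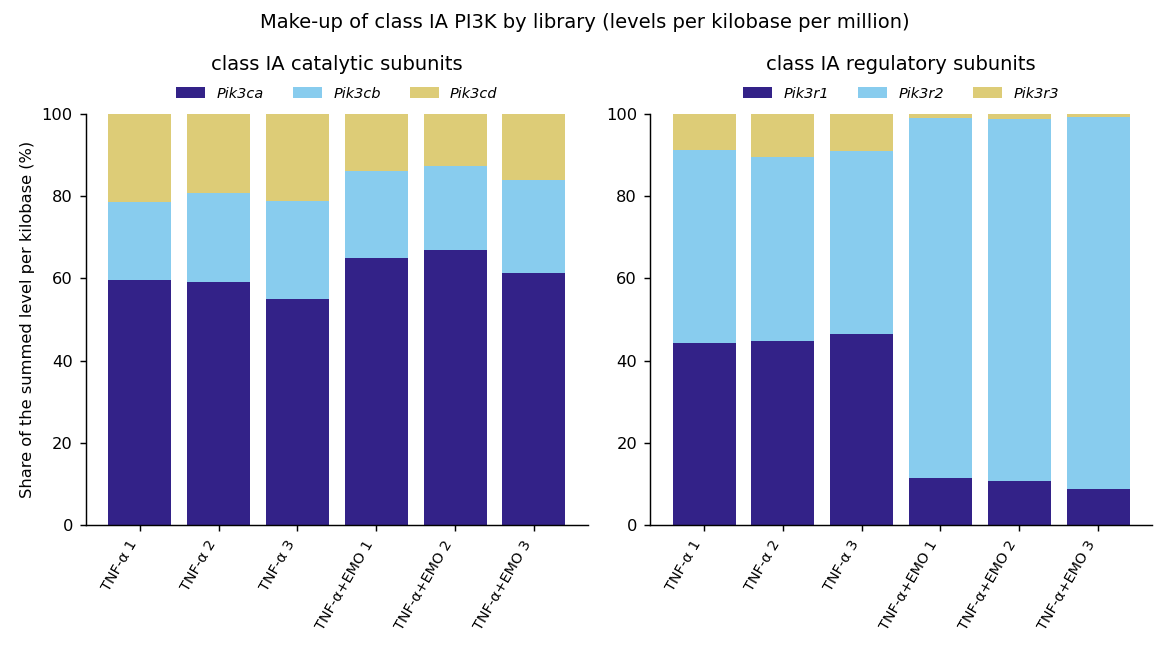
Share of each gene (vertical axis, percent) in the summed level per kilobase of the class IA catalytic subunits (left) and the class IA regulatory subunits (right), with 1 stacked bar per library. Pik3r2 takes 87.4% to 90.2% of the regulatory sum in the TNF-α+EMO libraries, against 44.5% to 46.8% in the TNF-α libraries, and Pik3ca holds the largest catalytic share in all 6 libraries.

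The other genes of the pathway were taken from 12 lists by role, 140 genes beside the 8 members, of which 124 were tested. Of these, 56 were higher and 52 lower with EMO and 16 did not pass, so 87.1% were called, against 80.9% of all genes tested. Their median log2 fold change was 0.04 and that of all genes -0.01. The counts of each list include any of the 8 genes it holds, and all adjusted p are from the edgeR fit over all genes.

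At the receptor, the adaptor genes Irs1 and Irs2, which dock PI3K to the insulin and IGF receptors, parted. Irs1 fell from 520 to 538 counts to 78 to 101 (log2 fold change -2.46, standard error 0.12), and Irs2 rose from 533 to 586 counts to 1374 to 1607 (1.47, standard error 0.08). Gab2, another docking protein, rose by 1.82 (standard error 0.10). Of the 9 adaptors tested, 6 were higher and 2 lower (largest adjusted p among the 3 named, 2.7e-08). Of the 5 class I regulatory and adaptor genes tested, 4 were lower and 1 higher. The higher one had low counts, 0 to 5 with TNF-α and 14 to 30 with EMO. Pik3ip1, whose product binds and restrains the catalytic subunit, fell from 706 to 752 counts to 36 to 55 (-4.00, standard error 0.14, adjusted p = 6.7e-10). Of 7 class II and III genes, 5 were higher and 2 lower. Their 3 largest changes were those of Pik3c2b (1.41), Uvrag (1.34) and Atg14 (1.12), of which the last 2 encode partners of the class III kinase in autophagy and endosome traffic.

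Among 15 genes listed as opposing PI3K or AKT, 8 were lower, 3 higher and 4 did not pass. The list includes Trib1, Trib2 and Trib3, and whether each of them opposes AKT in these cells was not tested. The Tribbles pseudokinases, which bind AKT or direct proteins to degradation, gave the largest changes in both directions. Trib3 rose from 218 to 237 counts to 5756 to 6763 (log2 fold change 4.86, standard error 0.08, adjusted p = 4.6e-12). Trib2 fell from 343 to 365 counts to 6 to 10 (-5.25, standard error 0.20), and Trib1 from 754 to 887 counts to 54 to 59 (-3.79, standard error 0.11).

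Beside AKT, the related kinases Sgk1 (-1.71, standard error 0.08) and Sgk3 (-2.82, standard error 0.23) fell, with adjusted p of 3.4e-09 and 5.0e-07. Pdpk1, which encodes the kinase PDK1 that activates AKT and was named for that role, had 365 to 391 counts with TNF-α and 282 to 348 with EMO and did not pass (-0.22, standard error 0.11, adjusted p = 0.081). Of 14 genes for AKT substrates, 7 were higher and 7 lower, and all 14 were called, where 80.9% of all genes tested were. Akt1s1, which encodes the mTORC1 inhibitor PRAS40, rose from 1611 to 1717 counts to 5457 to 6448 (1.89, standard error 0.07, adjusted p = 1.1e-09). Pfkfb2, a glycolytic regulator, rose by 1.84 (standard error 0.09), and Tbc1d1, a RAB GTPase-activating protein, fell by 1.31 (standard error 0.06). All 4 FOXO genes of the list were lower, Foxo1 with a log2FC of -1.29 and Foxo3 of -1.27, although the groups of Foxo4 overlapped (-0.32, adjusted p = 0.022).

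Of 12 genes of the mTOR complexes tested, 5 were lower, 3 higher and 4 did not pass. Rictor, which defines mTORC2, had 401 to 413 counts with TNF-α and 294 to 392 with EMO (-0.11, standard error 0.12, adjusted p = 0.39). Prr5l, an mTORC2 partner, fell from 458 to 524 counts to 70 to 90 (-2.57, standard error 0.14, adjusted p = 1.4e-08). Tti2, a chaperone of this kinase family, rose by 1.28 (standard error 0.13), but its value is uncertain, since it overlaps Mak16, which had up to 971 counts, and the strand setting of the counting is not given in the sources used here. Of 12 tested genes listed for TSC, RHEB and AMPK, 7 were higher and 4 lower. The higher ones include Rheb (0.66) and Rhebl1 (0.66), which are not parts of the TSC brake, so these counts do not describe the brake alone. The AMPK subunit genes Prkab2 (2.11, standard error 0.19) and Prkab1 (-0.96, standard error 0.07) moved in opposite directions, and Tbc1d7, a TSC subunit, fell by 1.23 (standard error 0.17).

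Of the 26 tested genes by which amino acids reach mTORC1 through the RAG GTPases at the lysosome, 16 were higher and 9 lower, with a median log2 fold change of 0.83. The 4 tested Lamtor genes, which encode the lysosomal anchor of the RAG proteins, were all higher, by 0.84 to 2.15, as were Rraga (1.26), Rragc (1.09) and Rragd (2.05). Sesn2, a leucine sensor that restrains mTORC1 and is known as a stress-induced gene, rose from 557 to 596 counts to 11737 to 12390 (4.46, standard error 0.07, adjusted p = 1.9e-12). Sesn3 of the same family fell from 680 to 775 counts to 82 to 92 (-3.00, standard error 0.10), and Fnip2, a partner of folliculin, rose by 2.58 (standard error 0.10). Of 15 genes for mTORC1 substrates, 5 were higher and 7 lower. Eif4ebp1, which encodes the translation repressor 4E-BP1, rose from 883 to 979 counts to 4645 to 6589 (2.69, standard error 0.12, adjusted p = 1.6e-08). The S6 kinase gene Rps6kb2 rose by 1.41 (standard error 0.10), and Eef2k fell by 1.38 (standard error 0.11).

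Of 15 genes known as transcriptional targets of FOXO factors, 6 were higher and 8 lower, with a median log2 fold change of -0.24. Among those with a mean of at least 100 counts, the largest changes were those of Gadd45a, a growth arrest gene, which rose by 5.62 (standard error 0.13) from 652 to 722 counts to 28120 to 38809, and of Pik3ip1 and Sesn3, which fell as given above.

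**Figure D4:**
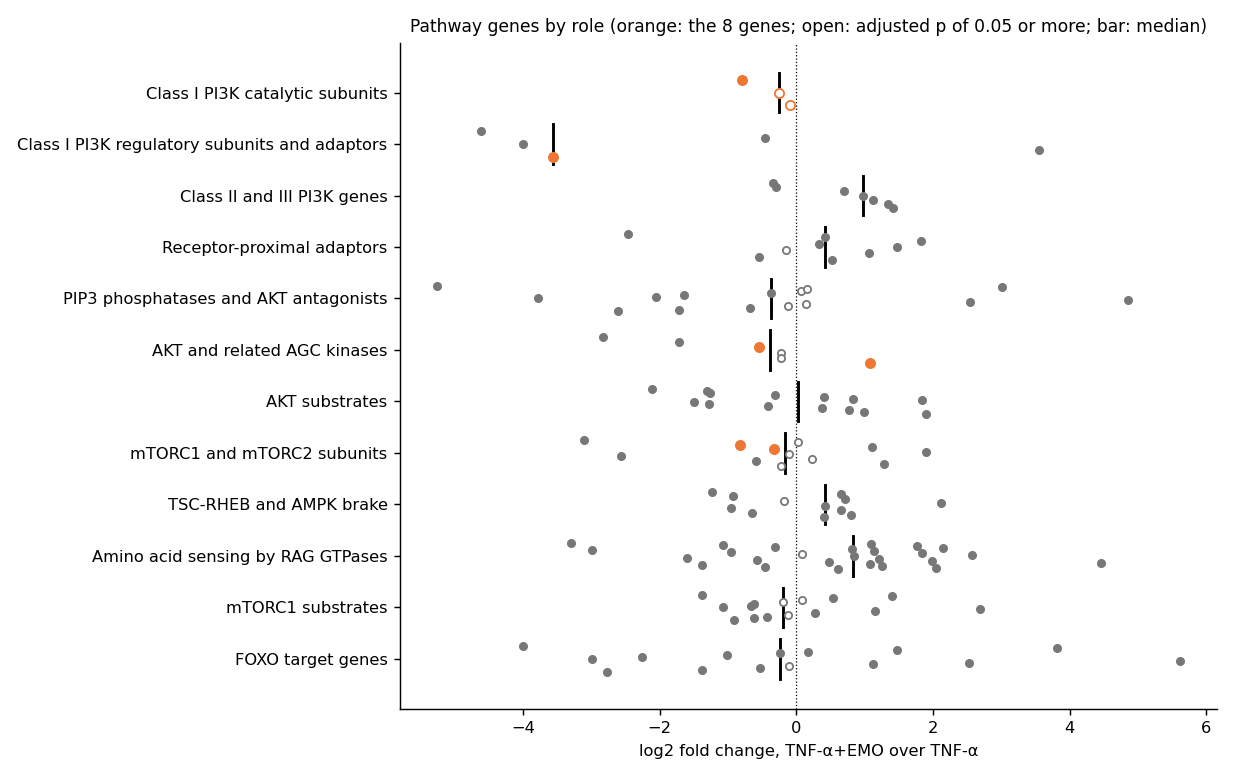
Log2 fold changes (horizontal axis) of the tested genes of each of the 12 pathway lists, with the 8 PI3K, AKT and mTOR genes in orange, open points for genes that did not pass, and a bar at each list's median. The RAG list has its median at 0.83 and the class II and III list at 0.98. The median of the class I regulatory list, -3.56, is the value of Pik3r1 itself.

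The genes most like Akt2 and Pik3r1 over the 6 libraries were found by the root mean square difference of log2 CPM (with a prior count of 2, which draws low counts together), centred on the TNF-α mean. For Akt2 these were Wdfy1 (0.02), Rbm19 (0.02) and Sec61a1 (0.03), and 1127 genes lay within 0.2. For Pik3r1 they were Nqo2 (0.06), Sptbn1 (0.07) and Pole (0.07), and 115 genes lay within 0.2. Nqo2 had a mean of 4.10 normalized counts with EMO and a fitted log2FC of -3.99, against -3.56 for Pik3r1.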

How the data were processed

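The 6 rat RA-FLS libraries were grouped by the treatment in the sample labels. Poly(A)-selected paired-end libraries were made by the authors' sequencing provider with a NEBNext Ultra kit, and reads were cleaned and aligned with Hisat2 to Rnor_6.0, the build in the submitters' processing notes. The authors deposited raw counts per gene and FPKM values (counts relative to gene length and to the reads mapped). The counting program, annotation release and strand setting are not given in the sources used here. The authors also deposited gene lengths and their own group comparison (means, fold changes and p-values), and the latter was not used.

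Genes that reached 10 counts in 3 or more libraries (13614 of 34156) were fitted with edgeR 4.0.16 in R 4.3.3 (TMM, robust quasi-likelihood F test, Benjamini-Hochberg adjustment over all of them), after a test on simulated counts. In the simulated counts far fewer genes changed than were called here, so that test does not bear on scaling in these data. The common biological coefficient of variation was 0.121. A standard error is the fold change divided by the root of F, and 95% intervals use the fit's t distribution. Depth was 16813322 to 17794455 counts, and a count of 0 allows up to 3 counts. Such limits cover counting error only, since PCR copies could not be told from molecules. Levels per kilobase use the deposited gene length and the effective library size. The FPKM values were 0.955 to 1.05 times those recomputed from library totals and served only to check the order of levels. Ratios within a library were compared by exact permutation tests (scipy 1.17.1).

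The members and pathway lists were chosen with earlier results of these data known. Genes named in a list are up to 3 called genes with the largest absolute log2 fold change and a mean of at least 100 counts, and, whatever their test, other isoforms of the members and Rictor, the counterpart of Rptor. Pdpk1, Rheb, Rhebl1 and the FOXO, RAG and Lamtor genes were named for their roles with their values seen. Some list members were not analysed or are not reported here. Alternatives were DESeq2 1.42.0, other scalings, other filters, the replicate number as a block and leaving out each library. Replicate numbers 1 to 3 come from the labels, and same-numbered libraries were not treated as pairs.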

Additional observations from a re-analysis of the deposited data

How the results depend on the processing

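The calls and directions of Akt1, Akt2, Pik3cd, Pik3r1, Mtor and Rptor were the same under all 13 alternatives run for each, with log2 fold changes from -3.68 to -3.53 for Pik3r1, 0.97 to 1.09 for Akt2 and -0.66 to -0.52 for Akt1. Pik3cb passed the threshold with at least 50 counts required (-0.27), with scaling to the library total only (-0.36) and with upper quartile scaling (-0.29), and its values ranged from -0.33 to -0.18 when 1 library was left out. The cause was not tested. Pik3ca ranged from -0.19 to 0.0049 in those fits and turned sign without TNF-α+EMO replicate 3. Leaving out a library, Akt1 ranged from -0.59 to -0.52, Akt2 from 1.04 to 1.09, Pik3cd from -0.87 to -0.72, Pik3r1 from -3.62 to -3.53, Mtor from -0.86 to -0.78 and Rptor from -0.35 to -0.30. Scaling to the library total moved the median of all genes to -0.13, with -0.44 for Rptor and 0.97 for Akt2. Requiring an absolute log2 fold change over 1 as well left 1 member lower and 1 higher. Of the 124 other pathway genes tested, 29 (23.4%) were then lower and 34 (27.4%) higher. The shares of all genes tested were 27.8% lower and 19.5% higher.

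Deviations from the group means of same-numbered libraries correlated at 0.019, -0.0068 and 0.068, against -0.070 to 0.053 for differently numbered ones. With 3 libraries in a group, these values cannot show whether same-numbered libraries shared a culture or batch. With the replicate number as a block, 10806 genes were called in place of 11008, Pik3cb was at -0.25 (adjusted p = 0.10, against 0.014 to 0.22 over its alternatives) and no member's call changed. Pik3cb and Pik3cd had 178 to 417 counts a library, and their standard errors of 0.11 and 0.12 were the largest among the members. Pik3r1, with 213 to 236 counts in the TNF-α+EMO libraries, had a standard error of 0.08. The part of depth in these standard errors was not tested.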
